A study of Mus musculus with 18 samples.

Results

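The 8 genes described here, Ung, Apex1, Msh6, Exo1, Atm, Trp53bp1, Rif1 and Xrcc5, encode enzymes and repair proteins of antibody class switching. They were chosen by symbol from GENCODE M21, which holds 55413 genes on the assembled chromosomes of GRCm38, 21938 of them protein-coding. The rule uses symbols alone. The gene of AID itself was not analysed here. Binding of KDM2A and the position of H3K36me2 had been mapped by ChIP-seq in splenic B cells of mice with an intact Mir155 gene (WT) and of Mir155-deficient mice (KO), both on a C57BL/6 background. With 3 libraries per genotype and antibody there were 12 peak lists. Replicate 1 was male and replicates 2 and 3 were female in every group.

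All groups had received the same treatment. B cells had been purified by removing cells with CD43, Ter119 and CD4, and were then cultured for 2 days at 1% oxygen with antibodies to CD40 (1 µg/ml) and to IgM (F(ab')2 fragments, 5 µg/ml) and with interleukin 4 (4 ng/ml). Fixation used formaldehyde after EGS, which crosslinks proteins over a longer reach. The Mir155 deletion of the KO mice is present in all cells and not in B cells alone. A peak list gives no measure of miR-155, so the lists hold no check of the genotype labels. The labels also did not state whether the libraries of a group came from separate mice, so p-values refer to the spread between these libraries.

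Class switching replaces the constant region of an antibody by a cut and join of DNA. AID converts cytosine to uracil in the switch regions of the heavy chain locus. UNG excises the uracil and APE1, the product of Apex1, cuts the DNA strand at the abasic site that is left. MSH6 recognises the same lesion as a mismatch and EXO1 removes a strand next to it. ATM signals the resulting breaks, while 53BP1 (Trp53bp1) and RIF1 protect the ends from resection. Ku80 (Xrcc5) binds the ends and starts end joining. KDM2A is a demethylase of H3K36me2 and binds unmethylated CpG dinucleotides through its CXXC zinc finger. The comparisons below asked whether KDM2A and H3K36me2 lay at these repair genes and whether they differed between WT and KO B cells.

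The number of CpG dinucleotides before the gene start differed widely among the genes. Promoter sequences from RefSeq (GRCm38.p6) were used for 6 of the 8 genes, and those of Exo1 and Rif1 were not used here. The 200 bases before the RefSeq start are shown for 4 of them, chosen because KDM2A peaks covered the Apex1 and Msh6 stretches in all 6 libraries, reached the Trp53bp1 stretch in 3 and covered the Xrcc5 stretch in 1. Capitals mark each CG, the letters searched for, and CG reads the same on both strands.
Apex1: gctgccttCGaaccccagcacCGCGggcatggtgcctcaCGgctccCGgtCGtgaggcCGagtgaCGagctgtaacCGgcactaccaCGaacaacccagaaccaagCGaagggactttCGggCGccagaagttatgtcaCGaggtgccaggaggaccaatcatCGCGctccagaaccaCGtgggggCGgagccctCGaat
Msh6: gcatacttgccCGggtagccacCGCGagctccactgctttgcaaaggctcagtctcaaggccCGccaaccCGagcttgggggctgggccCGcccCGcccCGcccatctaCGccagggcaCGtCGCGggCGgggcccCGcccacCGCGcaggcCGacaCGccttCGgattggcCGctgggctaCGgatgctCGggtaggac
Trp53bp1: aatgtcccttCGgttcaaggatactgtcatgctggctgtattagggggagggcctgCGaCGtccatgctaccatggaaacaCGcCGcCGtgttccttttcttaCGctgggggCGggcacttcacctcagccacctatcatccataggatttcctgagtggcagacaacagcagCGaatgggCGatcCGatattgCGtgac
Xrcc5: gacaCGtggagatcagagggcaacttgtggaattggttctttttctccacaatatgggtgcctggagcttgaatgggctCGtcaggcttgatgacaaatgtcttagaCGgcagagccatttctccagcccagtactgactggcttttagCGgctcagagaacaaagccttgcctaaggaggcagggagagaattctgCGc
These stretches are chr14:50924749-50924948 for Apex1, chr17:87974850-87975049 for Msh6, chr2:121271408-121271607 on the minus strand for Trp53bp1 and chr1:72307221-72307420 for Xrcc5, and the other 3 are on the plus strand. They held 19 CG in Apex1, 22 in Msh6, 12 in Trp53bp1 and 5 in Xrcc5. In the full 250 bases before the start, Apex1 had 28 CG, a number that 7.61% of the 32851 RefSeq promoters reached. Msh6 had 27, reached by 8.56%. Atm had 24 (12% of promoters), Trp53bp1 13 (31.5%), Ung 10 (37.8%) and Xrcc5 5 (55.6%).

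KDM2A was present near a TSS of every one of the 8 genes in at least 1 library, but in all 6 libraries only at Apex1 and Msh6. Of all protein-coding genes, 60.8% had a KDM2A peak within 2 kb of a TSS in at least 1 library and 26.4% in all 6. Ung and Atm had such a peak in 3 WT and 2 KO libraries. Rif1 had one in 3 WT libraries and 1 KO library, Trp53bp1 in 2 and 1, and Exo1 in 2 WT libraries and no KO library. Xrcc5 was the reverse, with a peak in 1 KO library and in no WT library. Counted over genes and libraries, 19 of 24 WT values and 13 of 24 KO values had a peak. Over all protein-coding genes these shares were 47.4% in WT and 41.2% in KO. More WT than KO libraries had one at 5 of the 8 genes, and at 34.8% of the protein-coding genes with a peak in any library.

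The number of the 8 genes with a KDM2A promoter peak was 6, 6 and 7 in WT replicates 1 to 3, and 4, 3 and 6 in KO replicates 1 to 3. Only KO replicate 3 lay within the range of the WT libraries. Of all protein-coding genes, 48.3, 46.8 and 47.1% had such a peak in the WT libraries and 39.8, 38.6 and 45.2% in the KO libraries, so KO replicate 2 was lowest and KO replicate 3 highest of the KO libraries there as well. The same peak lists differed in length, with 23372 to 29105 peaks in WT, 15667 and 15387 in KO replicates 1 and 2, and 21705 in KO replicate 3. Read depth was unknown. With the 15387 strongest peaks of every list, the counts were 18 of 24 in WT and 13 of 24 in KO. With peaks at a q of 0.01 or less, they were 16 and 10. Shares over all protein-coding genes were not determined for these counts. The protein-coding genes with a peak in all 6 libraries fell from 5786 to 4520 and 2397 at these settings. Without KO replicate 2, the shortest list, 4 genes had a peak in every remaining library, since Ung and Atm lacked one there alone. A peak in every remaining library was then present at 6558 of the 21938 protein-coding genes.

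**Figure D1:**
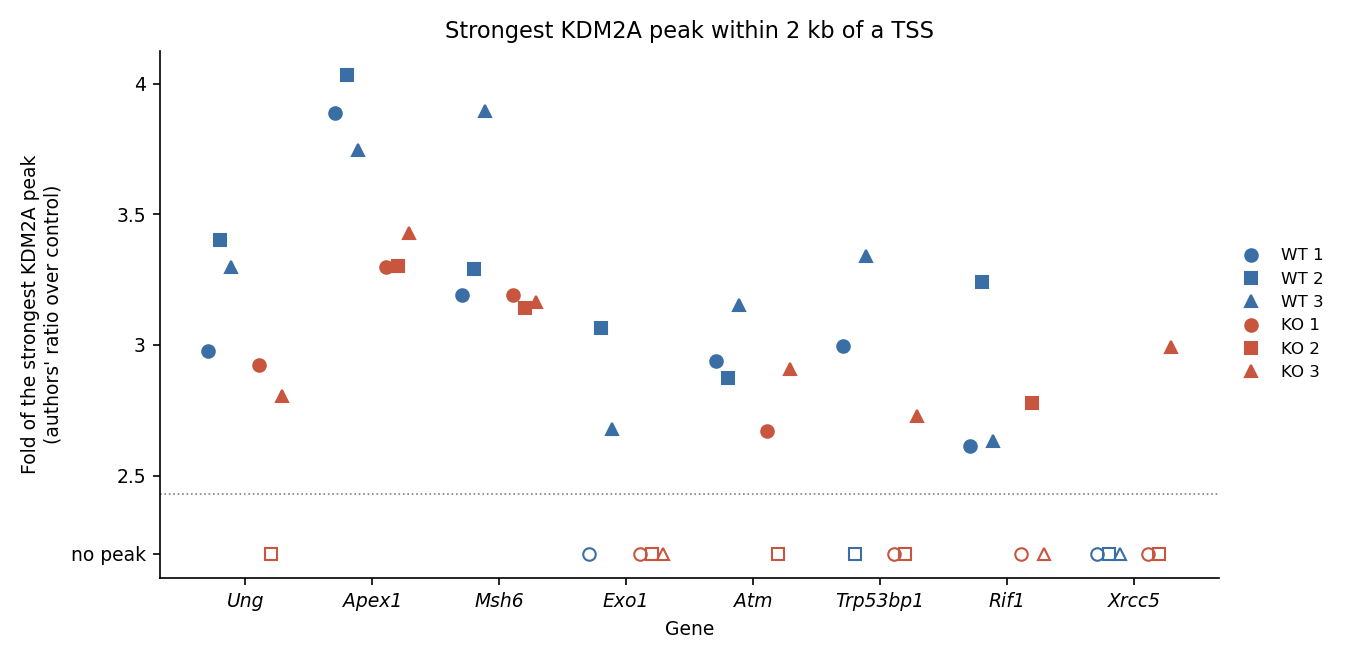
Fold of the strongest KDM2A peak within 2 kb of a TSS (y axis, the authors' ratio over control, not starting at 0) for each gene (x axis) and library (symbols, WT in blue and KO in red). Open symbols on the lowest line mark libraries with no peak, and only Apex1 and Msh6 have none of these.

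Apex1 had the highest mean KDM2A fold of the 8 genes in both genotypes. Its gene lies at chr14:50924968-50927139 on the plus strand and is 2.172 kb long. The fold of its peak, the authors' ratio of signal over the control background, was 3.89, 4.03 and 3.75 in WT, against 3.30, 3.30 and 3.43 in KO. Every KO value was lower than every WT value. The WT mean was 3.89 ± 0.14 and the KO mean 3.34 ± 0.075 (SD, n = 3 each). These peaks ranked between the 88.6 and the 98.8 percentile of their lists. The peaks of all 6 libraries shared 457 bp, chr14:50924726-50925182, which runs from the upstream sequence across the gene start into the gene. The start of Osgep, which encodes a tRNA-modifying enzyme, lies 75 bp away on the other strand, so the same peak covers both starts.

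Msh6, the mismatch recognition protein, had KDM2A folds of 3.19, 3.29 and 3.90 in WT and 3.19, 3.14 and 3.17 in KO. WT replicate 3 stood above the other 5 libraries, and the remaining values overlapped between genotypes. The WT mean was 3.46 ± 0.38 and the KO mean 3.17 ± 0.026 (SD, n = 3 each). The gene lies at chr17:87975062-87990892 on the plus strand. Its peaks shared 845 bp, chr17:87974737-87975581, which spans the gene start.

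The folds of Apex1 and Msh6 could be compared in a fit over all 5786 protein-coding genes with a promoter peak in all 6 libraries, after each library was centred on its median. limma called 0% of these genes at an adjusted p under 0.05, and 299 had an unadjusted p under 0.05. On the log2 scale Apex1 differed by -0.16 (SE 0.12, adjusted p = 0.928) and Msh6 by -0.060 (SE 0.12, adjusted p = 0.981). Neither difference passed the test, which on simulated data missed most changes of 0.5 log2. Every KO library lay below every WT library at 5.17% of the genes tested, and Apex1 was one of these. Without centring, the median of all genes moved to -0.060 and the Apex1 difference to -0.22 (adjusted p = 0.778). Every KO library then lay below every WT library at 10.1% of the genes.

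Ung, the uracil glycosylase, is located at chr5:114130386-114139323 on the plus strand. The strongest KDM2A peak within 2 kb of its TSS had a fold of 2.98, 3.40 and 3.30 in WT. In KO it was 2.92 in replicate 1 and 2.80 in replicate 3, with no peak in replicate 2. Both KO values lay below the 3 WT values. The peak with 3.40 in WT replicate 2 was centred at -2408 bp, on the side of Alkbh2, a DNA repair dioxygenase gene whose start lies 2168 bp away. The peak at the gene start in that library had a fold of 3.21. Start peaks of the 5 libraries shared 1053 bp, chr5:114130518-114131570, all of it inside the gene.

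Exo1, the exonuclease of mismatch repair, had KDM2A peaks at its start in 2 libraries. The gene lies at chr1:175880581-175913489 on the plus strand. Peaks of 251 and 356 bp were called in WT replicates 2 and 3, with folds of 3.06 and 2.68. WT replicate 1 and all KO libraries had no peak there. A small nuclear RNA gene, Gm23805, has its TSS within 172 bp of an internal TSS of Exo1, and no KDM2A peak was called at that site.

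Atm, the kinase that signals DNA breaks, lies at chr9:53439149-53536740 on the minus strand. Its KDM2A folds were 2.94, 2.87 and 3.15 in WT, and 2.67 and 2.91 in KO replicates 1 and 3. KO replicate 2 had no peak. The WT and KO values overlapped. The 5 peaks shared 271 bp, chr9:53536689-53536959, which spans the gene start. Npat, a regulator of histone genes, starts 307 bp away on the other strand, so a peak here cannot be assigned to one of the 2 genes.

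Trp53bp1 and Rif1 encode proteins that protect DNA ends. Trp53bp1 (chr2:121193281-121271407, minus strand) had folds of 2.99 and 3.34 in WT replicates 1 and 3 and of 2.73 in KO replicate 3. The other 3 libraries had no peak at its start. Rif1 (chr2:52072832-52122383, plus strand) had folds of 2.61, 3.24 and 2.63 in WT and of 2.78 in KO replicate 2. The KO value lay between the WT values. In WT replicate 3 the strongest Rif1 peak was centred at -1682 bp, and the peak at the gene start had a fold of 2.52.

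Xrcc5, which encodes Ku80, lies at chr1:72307421-72394952 on the plus strand. It was the only one of the 8 genes with a KDM2A promoter peak in KO and none in WT. The peak in KO replicate 3 had a fold of 2.99 and covered chr1:72306992-72307536, which spans the gene start. WT replicates 1 and 2 had peaks only deep inside introns, centred 77514 and 13965 bp after the start, with folds of 2.63 and 2.78.

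**Figure D2:**
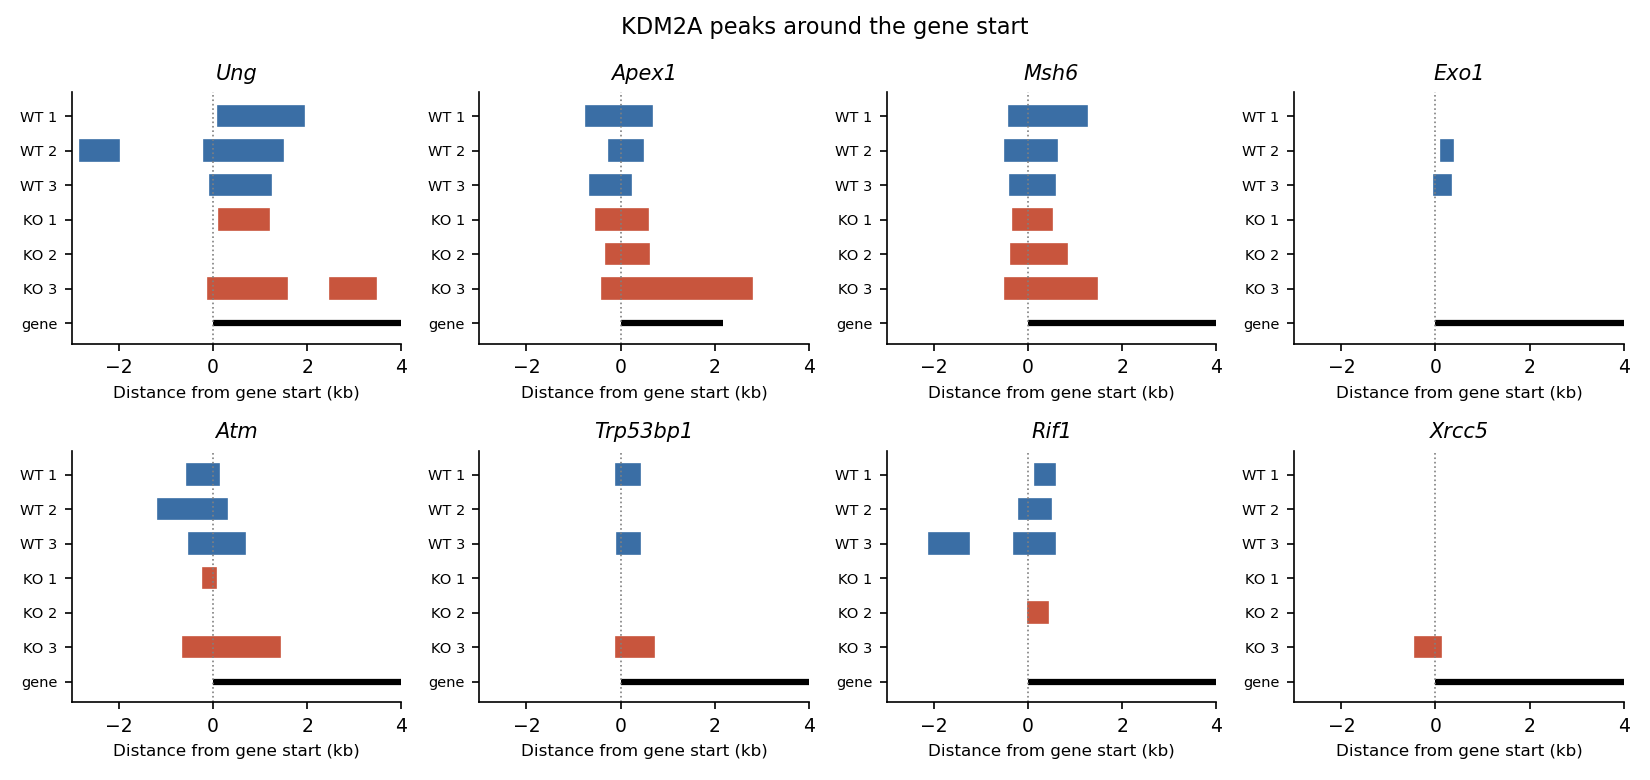
KDM2A peaks (bars) of each WT and KO library (rows) by distance from the gene start in kb (x axis, positive into the gene), 1 panel per gene, with the gene as a black line that is cut at 4 kb where it runs on. Of the 36 peaks chosen for lying within 2 kb of a TSS, 27 span the gene start.

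Of 36 KDM2A peaks of the 8 genes within 2 kb of a TSS, 27 spanned the gene start. The centre was within 1 kb of the gene start in 30. The choice of windows itself places these peaks near a TSS, and the matching share over all genes was not determined. The centres of the 36 peaks fell 12 times in an untranslated or noncoding exon, 10 times in an intron, 8 times upstream of the gene and 6 times in a coding exon. A further 7 peaks lay in gene bodies outside these windows. Peak width had a median of 858 bp in WT and 880 bp in KO, counting all 43 peaks. The median fold was 3.06 over the 25 WT peaks and 2.92 over the 18 KO peaks, which are not the same sites. Over whole lists the median fold was 2.61 to 2.87 in WT and 2.69 to 2.78 in KO.

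A rule modelled on that of the study, which uses means without a test, was applied to the deposited folds of KDM2A peaks merged over libraries. Its intervals need not be those of the study, which worked from its own signal ratios. An interval counted as bound with a peak in 2 of 3 libraries, and as WT-enriched with a mean fold over 3 and a WT to KO ratio over 1.17 where both genotypes were bound. Of the 8 genes, Trp53bp1 alone had a WT-enriched promoter interval, against 13% of the protein-coding genes with a bound interval. Its mean fold was 3.17 over 2 WT libraries, and with 1 KO library it was not bound in KO. Apex1, with a ratio of 1.16, was just under this ratio. Ung had 1.10 at its start, Msh6 1.09 and Atm 1.07. The Exo1 and Rif1 intervals were bound in WT only, with mean folds of 2.87 and 2.79, under the minimum of 3. No interval of the 8 genes was KO-enriched. KO-enriched intervals were fewer over the whole genome as well, at 315 beside 1509 that were WT-enriched.

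KDM2A coverage, the percent of the windows within 2 kb of any TSS that lay under peaks, varied widely between libraries of the same genotype. The windows spanned 4.001 kb in Xrcc5, with 1 TSS, and 31.38 kb in Trp53bp1, with 19 TSS, so levels are not comparable between genes. Apex1 coverage was 32.5, 16.7 and 20.3% in WT, against 25.5, 21.2 and 62.7% in KO. Ung coverage was 32.3, 29.5 and 22.8% in WT, against 18.5, 0 and 46.7% in KO. KO replicate 3 was the highest of the 6 libraries in both genes, and also in Msh6, Atm, Trp53bp1 and Xrcc5. Over all protein-coding genes, mean coverage in that library was 7.97%, between the 5.32 and 6.12% of the other KO libraries and the 8.36 to 10.4% of WT.

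**Figure D3:**
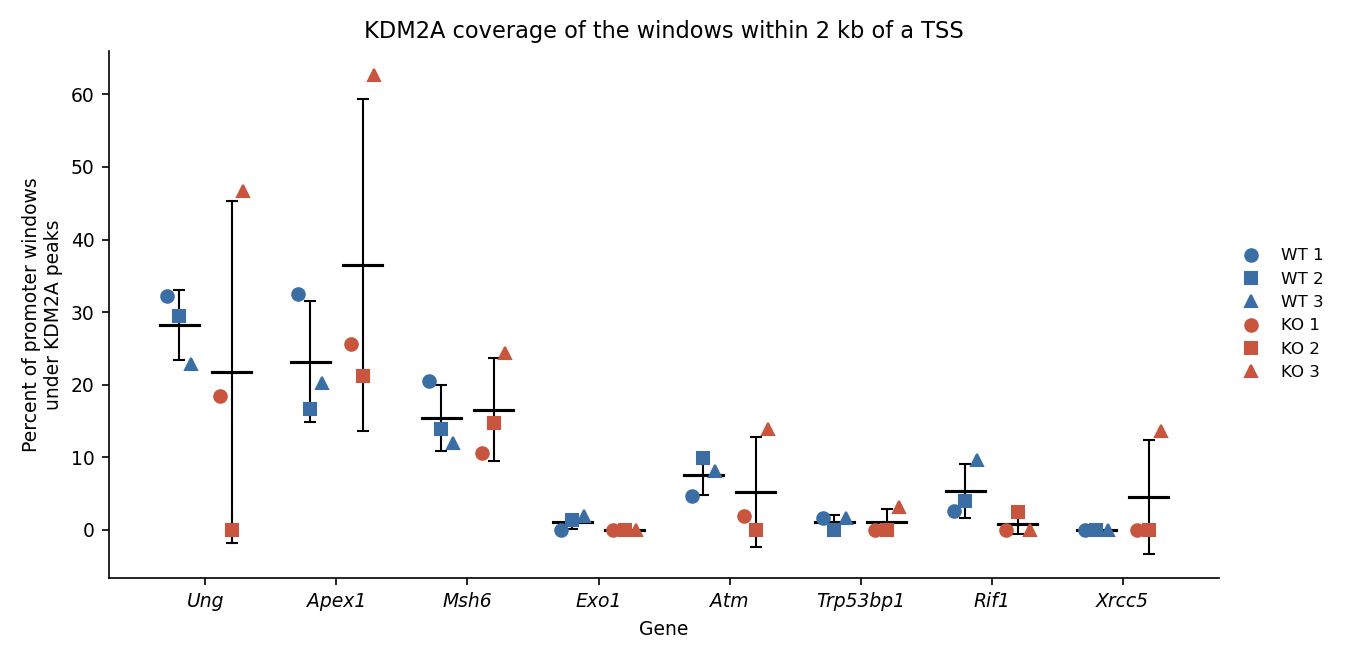
Percent of the windows within 2 kb of a TSS under KDM2A peaks (y axis) for each gene (x axis) and library (symbols). Black lines give the mean and SD of 3 libraries, and KO replicate 3, the red triangle, is the highest value in 6 of the 8 genes.

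limma was fitted to this coverage over the 12288 protein-coding genes with a mean of at least 1%. It called 0% of them at an adjusted p under 0.05, while 942 had an unadjusted p under 0.05. The median difference over all these genes was -2.87 percentage points. Of the 8 genes, 7 entered the fit, and Exo1 was under the minimum. Xrcc5 entered it through 1 KO library alone. Rif1 coverage was 2.54, 4.00 and 9.56% in WT, against 0, 2.45 and 0% in KO. All its KO values lay below all its WT values, as at 12.5% of the genes tested. Coverage was also divided by the genome percent of its list and multiplied by the mean genome percent of the 6 lists. Points given after this division are on that scale. The Rif1 groups then overlapped, and all KO values were lower at 3.4% of genes and higher at 10.2%. All Apex1 values of KO were higher on that scale, with a difference of 27.9 points that did not pass the test (adjusted p = 0.735). Without the division the Rif1 difference was -4.55 points (SE 2.36, adjusted p = 0.648). It was -2.46 without WT replicate 3 and -1.37 with equal list lengths. For Ung it was -6.45 points (SE 11.7), for Atm -2.27 (SE 4.12) and for Trp53bp1 -0.037 (SE 1.55). For Apex1 it was 13.3 points (SE 12.3), for Msh6 1.15 (SE 5.54) and for Xrcc5 4.54 (SE 3.63). None passed the test, with adjusted p between 0.648 and 0.994, but on simulated data this fit missed all changes of 20 points. Without KO replicate 3 the Apex1 difference was 0.21 and the Msh6 difference -2.79 points, and without KO replicate 2 the Ung difference was 4.42 points.

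The genes with most CpG around their start had KDM2A peaks in more libraries. CpG numbers in the 1 kb around the gene start were 109 in Msh6, 95 in Rif1, 83 in Apex1, 78 in Atm, 68 in Ung, 63 in Trp53bp1, 59 in Exo1 and 35 in Xrcc5. Apart from Rif1, the order matched that of the number of libraries with a peak. Protein-coding genes as a whole followed the same course. They were split into 4 groups of about equal size by CpG number. Of the genes with 11 or fewer, 3.7% had a peak in all 6 libraries and 81.6% had none. Of the genes with 69 or more, which included Apex1, Msh6, Atm and Rif1, 53.8% had a peak in all 6 and 10.1% had none. The group from 41 to 68, with Ung, Exo1 and Trp53bp1, had 33.7% in all 6 libraries. Xrcc5 belonged to the group from 12 to 40, with 13.4%. These shares describe one set of 6 libraries, and GC content and mappability were not separated from CpG.

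**Figure D4:**
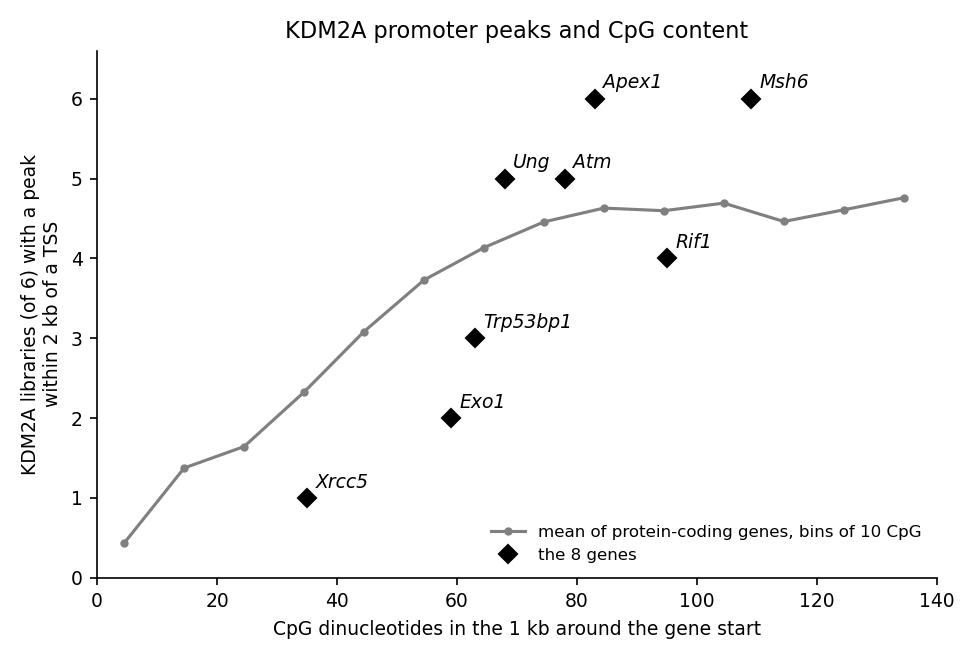
Number of the 6 KDM2A libraries with a peak within 2 kb of a TSS (y axis) against the number of CpG in the 1 kb around the gene start (x axis), for the 8 genes (diamonds) and as the mean of protein-coding genes in bins of 10 CpG (grey line). Xrcc5, with 35 CpG, has a peak in 1 library, and Msh6, with 109, in 6.

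H3K36me2 peaks were nearly absent from the bodies of the 8 genes in both genotypes. Gene body coverage was above 0 in 5 values only. These were 1.28% in Trp53bp1 (WT replicate 2), 1.51% in Rif1 (WT replicate 3), 4.99% in Exo1 and 0.496% in Xrcc5 (both KO replicate 1), and 1.88% in Msh6 (KO replicate 2). Ung, Apex1 and Atm had no H3K36me2 peak in the gene body in any library, as did 41.8% of protein-coding genes. In WT, between 0 and 1 of the 8 genes had a peak in the body, while 41.4 to 43.1% of protein-coding genes had one. In KO, between 0 and 2 had one, and in KO replicate 1 this was 43.1% of protein-coding genes, against 23.2% or less in KO replicates 2 and 3.

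The fit of H3K36me2 body coverage held 9804 protein-coding genes with a mean of at least 1%, which is 44.7% of them, and none of the 8 genes. limma called 0% of these at an adjusted p under 0.05, and 1899 had an unadjusted p under 0.05. That number was 3110 without KO replicate 1, 518 without KO replicate 2 and 510 without KO replicate 3, and 610 with coverage divided by the genome percent of its list. All KO libraries lay below all WT libraries at 28.7% of them, and at 10.2% when coverage was divided by the genome percent of its list. The H3K36me2 lists covered 4.17 to 5.32% of the genome in WT and 1.59 and 1.44% in KO replicates 2 and 3, but 3.63% in KO replicate 1, the male library.

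H3K36me2 peaks near the gene starts rarely overlapped the KDM2A peaks. Of the 36 KDM2A promoter peaks, 1 overlapped an H3K36me2 peak of the same genotype and replicate number, and this was Rif1 in WT replicate 3. Over all KDM2A promoter peaks, 22.2 to 28.1% overlapped one in WT and 3.33 to 18.1% in KO. Apex1 had H3K36me2 peaks centred at -2028 bp in WT replicate 1 and at -1368 bp in WT replicate 3, with folds of 3.39 and 2.38. Msh6 had upstream peaks in WT replicates 2 and 3 and in KO replicate 3, centred at -2662, -1973 and -854 bp. Trp53bp1 had such peaks in WT replicates 2 and 3, Exo1 in WT replicate 1, and Rif1 and Xrcc5 in KO replicate 1. The H3K36me2 peaks of the 8 genes numbered 16 in all. In WT replicates 1 to 3, 2, 2 and 4 of the 8 genes had one within 2 kb of a TSS. The shares of protein-coding genes were 39.3, 40.6 and 41.4%. In KO the numbers were 3, 1 and 1, beside 38.6, 16.1 and 17.7%. In WT replicate 3, H3K36me2 covered 16.1% of the Apex1 windows and 13.5% of the Msh6 windows. The mean there was 4.54% over the 8 genes and 8.72% over protein-coding genes.

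**Figure D5:**
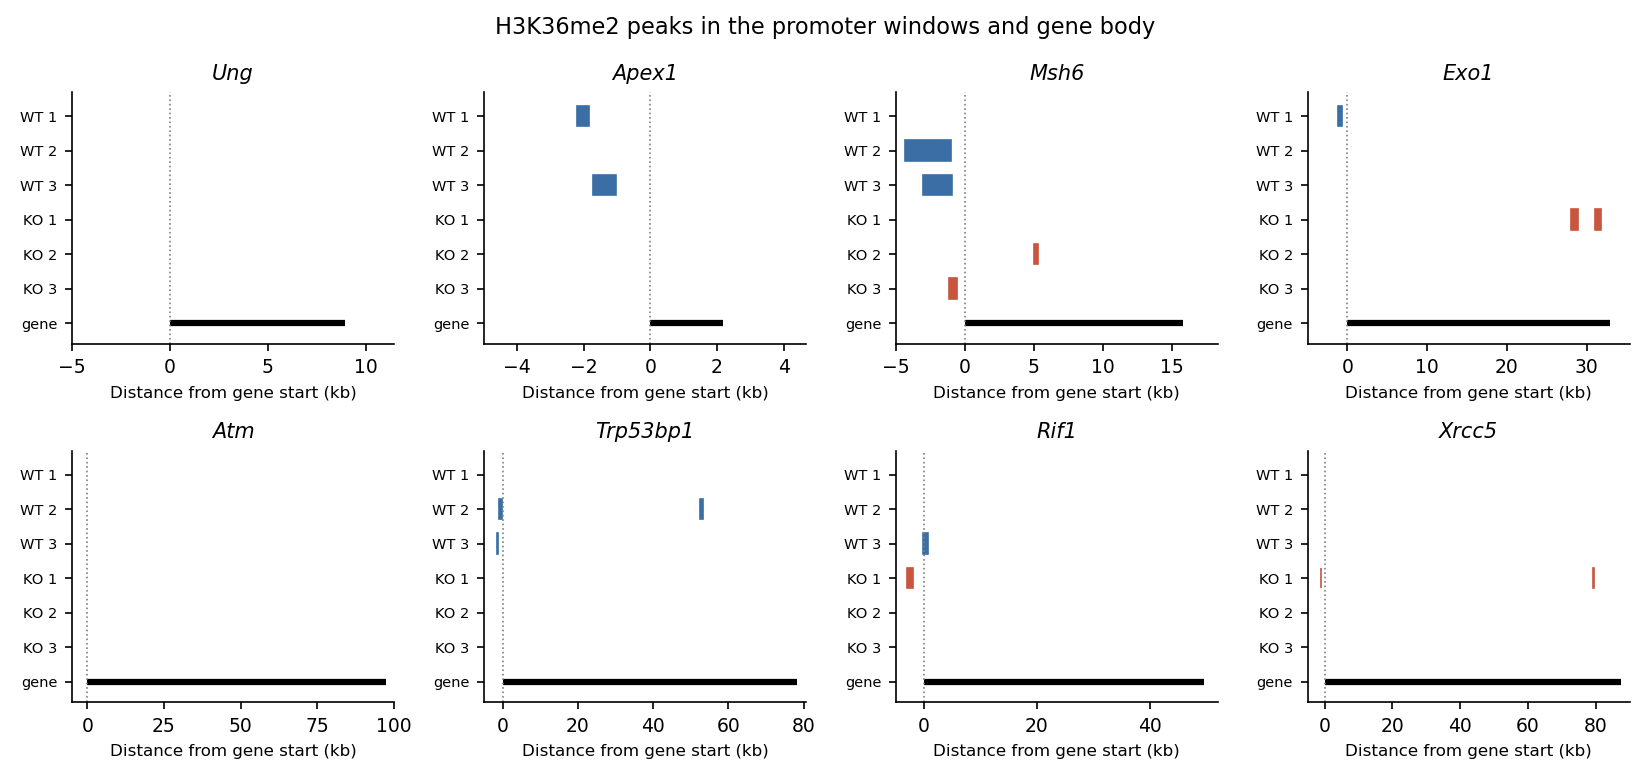
H3K36me2 peaks (bars) of each library (rows) by distance from the gene start in kb (x axis, a separate scale in each panel), shown for the windows within 2 kb of a TSS and the gene body (black line). Ung and Atm have no peak. The 16 peaks of the other 6 genes lie mostly upstream of the start, and the rest reach into the body, with 2 in Exo1 in KO replicate 1.

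The surroundings of the genes differed in H3K36me2. The nearest H3K36me2 peak was 588 to 5864 bp from Msh6 in 5 libraries and within the gene in KO replicate 2. It was 1021 to 7254 bp from Apex1. From Exo1 it was 726, 4255 and 184524 bp away in WT, and 0, 210592 and 205558 bp in KO. From Ung it was 27508, 2214 and 126495 bp in WT, and 18129, 224605 and 133919 bp in KO. Distances from Exo1 and Ung thus spread widely within each genotype. The median over protein-coding genes was 1214 to 1875 bp in WT, 1342 bp in KO replicate 1 and 30395 and 22194 bp in KO replicates 2 and 3. In the 50 kb downstream of Apex1, coverage was 32.6, 38.3 and 39.0% in WT, against 25.8, 13.1 and 15.4% in KO. All KO values were lower than all WT values there. In the 50 kb upstream of Msh6 it was 18.9, 24.9 and 15.1% in WT, against 11.7, 3.11 and 5.21% in KO. The groups again did not overlap, and KO replicate 1 was the KO library closest to WT in both.

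Downstream of Atm, H3K36me2 coverage was 2.45, 4.38 and 2.12% in WT, against 1.49, 0 and 0% in KO. Such separation was found on the downstream side of 2 of the 4 genes with a mean of at least 1% there, Apex1 and Atm, against 40.2% of protein-coding genes. On the upstream side it was found for Msh6, 1 of 4, against 41.8%. With 4 genes on a side, the counts are too small to be told apart from these shares. The flanks also hold other genes, and no test was run on them.

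Other genes of class switching and DNA repair were described in the same way. The lists held 38 symbols in 4 groups, of which 37 were found in the annotation. A promoter peak was present in all 6 libraries at 24 of the 37 genes, beside 2 of the 8 genes above and 26.4% of all protein-coding genes, and every one of the 37 had a peak in some library, beside 60.8%. Of 111 values per genotype, 103 in WT and 102 in KO were peaks, beside 47.4 and 41.2% over all protein-coding genes. Peaks were in more WT libraries at 6 genes and in more KO libraries at 5, beside 34.8 and 12.1% of the protein-coding genes with a peak in any library. By group, all 6 libraries had a peak at 2 of 6 genes of uracil excision and mismatch repair, at 7 of 11 of break signalling and end protection, at 7 of 10 of end joining and at 8 of 10 of switch region transcription and resection.

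None of these genes passed the test in any of the 3 comparisons. For the KDM2A fold, 24 were tested, and their median log2 difference was 0.01 beside 0.00 over all genes. Supt5, a transcription elongation factor, had folds of 3.17, 3.97 and 4.29 in WT and 2.96, 2.79 and 2.79 in KO (log2 difference -0.34, SE 0.12, adjusted p = 0.914). Rnf168, a ubiquitin ligase that marks chromatin at breaks, had 2.79, 2.45 and 2.59 in WT and 3.07, 3.19 and 3.25 in KO (0.35, SE 0.10, adjusted p = 0.914). These were the only 2 of the 24 whose groups did not overlap, 1 in each direction, beside 5.17% with all KO values lower and 5.2% with all KO values higher over all genes tested.

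For KDM2A coverage, the median difference of the 37 genes was -0.74 points, beside -2.87 over all genes. All KO values lay below all WT values in 3 of them, beside 12.5% over all genes. After the same division this still held in 1 of these 3, Rnf8. Such genes were not counted over all 37 after the division, so no share is set beside it. The 3 were Supt5, Rpa1, which binds single-stranded DNA, and Rnf8, a ubiquitin ligase that acts before RNF168, with differences of -12.8, -10.3 and -10.2 points (adjusted p from 0.642 to 0.669). After the division by genome percent they were -2.30 in Supt5, -4.67 in Rpa1 and -7.76 in Rnf8. Without WT replicate 3 the Rnf8 difference was -2.36 points, and without WT replicate 2 that of Rpa1 was -5.22. Rnf168, whose fold was higher in KO, had lower mean coverage there, at 33.6% in WT and 21.7% in KO. Its difference of -11.9 points did not pass the test, its groups overlapped, and after the division it was 1.62. For H3K36me2 body coverage, 18 of the 37 genes had a mean of at least 1%, and their median difference was -3.39 points, beside -5.24 over all genes. All KO values lay below all WT values in 4 of the 18, beside 28.7% over all genes. The 3 with the largest differences were Smug1, a second uracil glycosylase, Xrcc1, a scaffold of single-strand break repair, and Nhej1, an end-joining factor, at -6.51, -4.41 and -3.66 points (adjusted p from 0.258 to 0.304). Without WT replicate 2 the Smug1 difference was -3.35 points.

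Markers of B cells were used to check the cell type label, as peaks and not as expression. KDM2A promoter peaks were present in all 6 libraries at Cd79a, Cd79b and Pax5, and at Ms4a1 in 3 WT libraries and 1 KO library. Of the T cell, myeloid and erythroid markers, Cd8a had one in 1 WT library and Csf1r in 1 KO library, and the other 6 had none. H3K36me2 gene body coverage was not ordered in this way. Its means in WT and KO were 52.0 and 27.4% in Itgam, 20.7 and 10.2% in Csf1r and 18.6 and 5.61% in Lyz2, all myeloid markers. In the B cell markers named here they were 1.69 to 11.2% in WT and 0 to 4.47% in KO. The part of other cells in these values was not tested.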

How the data were processed

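Splenic B cell ChIP-seq libraries were processed by the authors with the nf-core/chipseq pipeline, BWA alignment to GRCm38 and MACS2 broad peak calling per library, with no pooling; versions of BWA and MACS2 are not given in the sources used here. The deposited fold of a peak is a ratio over the control. The deposited lists also give −log10 of p and q-values, down to about 1 for q, and a score that was not used. Depth is unknown, so no counting interval was given. The 6 input libraries were not used here.

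Peaks were assigned with an overlap of at least 1 bp to windows of 2 kb around every GENCODE M21 TSS and to gene bodies, in 1-based coordinates. Fold (log2, centred per library) and coverage were compared with limma 3.58.1 in R 4.3.3 (trend, Benjamini-Hochberg over all genes tested, threshold 0.05). On simulated data the fits missed most fold changes of 0.5 log2 and all coverage changes of 20 points. A difference that did not pass is therefore not shown to be absent. Tables were made with Python 3.11.15 and pandas 2.3.3. The 8 genes and all lists were chosen with earlier results of these data known. All 8 genes are described, with genes whose TSS lies within 2 kb. Of the other lists, genes past the threshold were named, or else up to 3 per comparison and direction with the largest change among those whose groups did not overlap. Alternatives covered windows, centring, scaling, list length, q, biotype, filter, replicate block and single libraries. One marker gene of the lists is not reported here.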

Additional observations from a re-analysis of the deposited data

Results flagged for a closer look

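The male libraries (replicate 1) and the female libraries (replicates 2 and 3) gave differences of opposite sign in 3 of 18 contrasts examined over the 8 genes. In each, the male KO minus WT difference had one sign and every female pair the other. Apex1 KDM2A promoter coverage differed by -6.99 points in males and by 23.5 points in females. Msh6 coverage differed by -9.98 and 6.71 points, and the Msh6 fold by 0.00061 and -0.44. After the centring used in the fit, the Msh6 differences were 0.0049 and -0.092 on the log2 scale, so the male value was close to 0. Without KO replicate 3 the female coverage differences were 2.72 points in Apex1 and 1.86 in Msh6. Each genotype had 1 male library, sex and replicate number cannot be told apart, and no test of male against female differences was run.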

How the results depend on the processing

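The count of called genes was 0 in the 3 comparisons under all alternatives that were run, with limma, except that H3K36me2 body coverage over genes of every biotype gave 40 calls (39 lower and 1 higher in KO). The same replicate numbers did not deviate together (correlations from -0.07 to 0.06), and with the replicate block 0 genes were called (308, 838 and 1119 at an unadjusted p under 0.05 for KDM2A fold, KDM2A coverage and H3K36me2 coverage). Each library left out in turn gave 0 calls, and between 2 and 4 genes with a KDM2A promoter peak in every remaining library. The Msh6 fold difference ranged from -0.13 to 0.035 (log2) over these. Coverage differences ranged from -18.9 to 4.42 points in Ung, -2.79 to 4.16 in Msh6, -6.60 to 0.36 in Atm and -0.57 to 0.48 in Trp53bp1. With coverage divided by the genome percent of its list, the Ung difference was 2.30, that of Msh6 9.63 and that of Atm -0.73 points, while the median of all genes moved from -2.87 to 1.48. The cause was not tested. For H3K36me2 body coverage that scaling moved the median of all genes from -5.24 to -1.70. For Apex1, Rif1 and Xrcc5 no difference changed sign, but the Xrcc5 difference rests on KO replicate 3 and has no value without it. Trp53bp1 and other genes under the 1% minimum in some settings had no value there. Alternatives for the counts of peaks were chosen after the data were seen. Unknown depth limits every absence of a peak.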
